A study of Mus musculus with 2 samples.

Results

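The 10 genes followed here belong to adrenergic, muscarinic and cyclic AMP signalling: Adrb1, Adra1a, Adra1b, Chrm2, Adcy5, Adcy6, Pde3a, Pde4b, Pde4d and Rgs6. The genes were compared across nucleus classes and libraries of a mouse heart study. They were taken by symbol, and all 10 were found among the 32245 gene symbols counted in both libraries. Single nuclei of cardiac tissue were sequenced from male C57Bl6/J mice aged 3.5 months, with 1 library for CF-KI and 1 for the control. Both genotypes carried Tcf21-MerCreMer, a Cre recombinase driven by Tcf21, a transcription factor gene of cardiac fibroblasts, and both received tamoxifen, which activates this Cre. CF-KI mice were Nlrp3-A350V/A350V, an allele that keeps the inflammasome sensor NLRP3 active, and the series record describes this activation as one of fibroblasts, with the allele silent where Cre is absent. Control mice were Nlrp3-WT/WT, and how many mice went into a library is not given in the sources used here. Cardiomyocytes are therefore not the cells in which the driver is meant to act.

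Noradrenaline acts on beta adrenergic receptors, which couple through the stimulatory G protein to adenylyl cyclases and raise cyclic AMP, and cyclic AMP activates protein kinase A, which speeds and strengthens the heartbeat. Muscarinic receptors oppose this through inhibitory G proteins, RGS proteins shorten the G protein signal, and phosphodiesterases break cyclic AMP down. Alpha-1 adrenergic receptors use a different G protein and act mainly on calcium and growth signals.

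Upstream sequence is shown for the receptor with the clearest difference in cardiomyocyte-like nuclei, Adrb1, and for the receptor with the clearest difference in the other classes, Chrm2. Each run holds the 250 bases before a RefSeq start on GRCm38.p6, 5′ to 3′ on the strand of the gene, in lower case, with capitals for TGACG, the core of the cyclic AMP response element, on either strand.
Adrb1, chr19:56721867-56722116, plus strand: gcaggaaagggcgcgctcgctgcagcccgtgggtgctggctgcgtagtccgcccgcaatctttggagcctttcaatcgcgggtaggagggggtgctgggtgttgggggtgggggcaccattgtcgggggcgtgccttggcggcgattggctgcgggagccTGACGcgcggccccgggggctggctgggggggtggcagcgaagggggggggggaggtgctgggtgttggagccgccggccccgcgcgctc
Chrm2, chr6:36387834-36388083, plus strand: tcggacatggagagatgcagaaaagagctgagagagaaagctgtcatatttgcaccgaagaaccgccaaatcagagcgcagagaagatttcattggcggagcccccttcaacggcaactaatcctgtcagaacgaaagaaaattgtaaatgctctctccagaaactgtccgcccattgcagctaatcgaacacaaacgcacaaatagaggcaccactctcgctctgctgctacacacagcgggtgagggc
The Adrb1 window was richer in G and C, at 74% against 50% for Chrm2. It held the core once, starting 90 bases before the start, and the Chrm2 window did not hold it. The core was present in 17.7% of the 32817 distinct windows of the same length in the RefSeq table, and the full element TGACGTCA in 1.55%. Of the 7 members with an entry, none had the full element, and besides Adrb1 only Pde4b had the core, in 1 of its 4 windows. These matches are descriptions of sequence, and binding was not measured.

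The members differ widely in gene size, which matters because nuclear RNA is rich in unspliced transcripts. Adrb1 (ENSMUSG00000035283; chromosome 19, 56722199 to 56733113, plus strand of GRCm38 in GENCODE vM21) spans 10.9 kb and Adcy6 (ENSMUSG00000022994; chromosome 15, 98589973 to 98610076, minus strand) spans 20.1 kb. Pde4d (ENSMUSG00000021699; chromosome 13, 108449948 to 109953461, plus strand) spans 1503.5 kb, Rgs6 (chromosome 12) 573.8 kb and Pde4b (chromosome 4) 519.7 kb. Adra1a (chromosome 14), Adra1b (chromosome 11), Chrm2 (chromosome 6), Adcy5 (chromosome 16) and Pde3a (chromosome 6) lie between 126.6 and 258.2 kb. Levels are given as CPM, the usual counts-per-million scale, in which the UMIs (molecule counts) of a gene are divided by all non-mitochondrial UMIs of that class and library. In control cardiomyocyte-like nuclei Pde4d had by far the most UMIs, at 113.3 CPM per kb of exon against 28.1 for Adcy6 and 26.9 for Adrb1. Per kb of gene span the order turned, with 9.49 CPM for Adcy6, 8.34 for Adrb1 and 0.905 for Pde4d. Annotated genes overlap Chrm2, Adcy5, Adcy6, Pde3a, Pde4d and Rgs6, 1 or more of them on the opposite strand in each case, and how the counting used strand is not given in the sources used here.

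The CF-KI library had 15077 barcodes and the control 11257, at medians of 1115 and 1158 UMIs. Mitochondrial RNA was higher in CF-KI, with a median share of 14.2% against 3.46%, and 4212 CF-KI and 520 control barcodes were over the limit of 20%. After this limit, a minimum of 200 genes and the removal of doublets, 67.0% of CF-KI barcodes (10105) and 92.2% of those of the control (10377) were kept. The libraries shared 46 barcode sequences, 28 of them among kept nuclei. Airway epithelial-like nuclei, 88 in the control and 1 in CF-KI, mark a further difference between the libraries, and summed airway epithelial markers were at 0.904 CPM in CF-KI and 303.1 CPM in control cardiomyocyte-like nuclei. Of 9 classes compared, cardiomyocyte-like had 2504 CF-KI and 2214 control nuclei, and all 12 cardiomyocyte markers had UMIs in both. Different clusters held most of this class in each library: cluster 2 had 433 CF-KI and 1982 control nuclei, and cluster 3, led by Tcap and Nmrk2, had 2071 and 232. The members and the pathway genes were left out of the genes used for clustering. With 1 library per group there is no replicate check, so no test or p-value is given, every difference is between these 2 libraries, and the 95% intervals cover counting error only.

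In cardiomyocyte-like nuclei, Adrb1, Adra1a and Adcy6 were lower in CF-KI than in the control beyond counting error. Pde4d was slightly higher (log2 ratio 0.14, 0.09 to 0.19), and the other members did not differ beyond counting error. The share of all genes that differ beyond counting error was not taken, so how usual such differences are cannot be read here. None of the 10 members was 1.5-fold higher in CF-KI, where 24.1% of all 12138 genes with at least 20 UMIs were. None was 1.5-fold lower, where 7.38% of all genes were. The median log2 ratio of CF-KI over control was 0.01 over the 10 members and 0.17 over all genes. Because the typical gene was shifted upward, scaling with TMM or median-of-ratios factors moved every ratio down by 0.16 or 0.17. Adrb1 and Adcy6 then passed 1.5-fold lower, and the share of all genes that did so was not taken.

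Adrb1, the beta-1 adrenergic receptor that mediates most of the response of the heart to noradrenaline, stood at 61.0 CPM (54.0 to 68.8) in CF-KI and 91.0 CPM (83.3 to 99.2) in control cardiomyocyte-like nuclei. The intervals did not overlap, and the log2 ratio was -0.58 (-0.79 to -0.36), or -0.74 with median-of-ratios scaling. Adra1a, the alpha-1A receptor, was at 87.0 CPM (78.6 to 96.2) in CF-KI, against 115.8 CPM for the control, a log2 ratio of -0.41 (-0.60 to -0.23). Adcy6, which with Adcy5 makes most cyclic AMP in heart muscle, was at 141.8 CPM in CF-KI, against 190.7 CPM for the control, a log2 ratio of -0.43 (-0.57 to -0.29). These 3 ratios stayed below 0 in each of 11 other ways of processing, such as other cluster resolutions, scalings or mitochondrial limits, with ranges of -0.74 to -0.37 for Adrb1, -0.61 to -0.29 for Adra1a and -0.65 to -0.35 for Adcy6.

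Chrm2, the M2 muscarinic receptor through which the vagus nerve slows the heart, had 70.5 CPM in CF-KI, against 62.5 CPM for the control, so the log2 ratio was 0.18, with an interval (-0.05 to 0.40) that held 0. Adcy5, the other cyclase, was at 17.2 and 14 CPM, with a log2 ratio of 0.30 (-0.18 to 0.77). Per kb of exon this was 1.95 CPM in the control, against 28.1 for Adcy6. Adra1b, the alpha-1B receptor, had only 51 and 67 UMIs, or 11.5 and 11.7 CPM. Its interval of -0.58 to 0.52 leaves room for a difference of nearly 1.5-fold either way. Rgs6, which ends muscarinic signals by speeding the inactivation of the inhibitory G protein, was at 51.8 and 46.5 CPM with a log2 ratio of 0.15 (-0.11 to 0.41).

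Among the phosphodiesterases, Pde3a, the target of the inotropic drug milrinone, had 138.6 CPM in CF-KI, against 134.9 CPM for the control, and the interval of its log2 ratio ran from -0.12 to 0.19. Pde4b was as close, at 82.7 and 84.9 CPM (-0.24 to 0.16). Pde4d, which acts close to the ryanodine receptor and the beta receptors, was at 1499 and 1360.1 CPM, a log2 ratio of 0.14 (0.09 to 0.19) that was slightly below that of the typical gene. Its sign turned negative in 3 of the same 11 ways of processing, among them both other scalings.

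**Figure D1:**
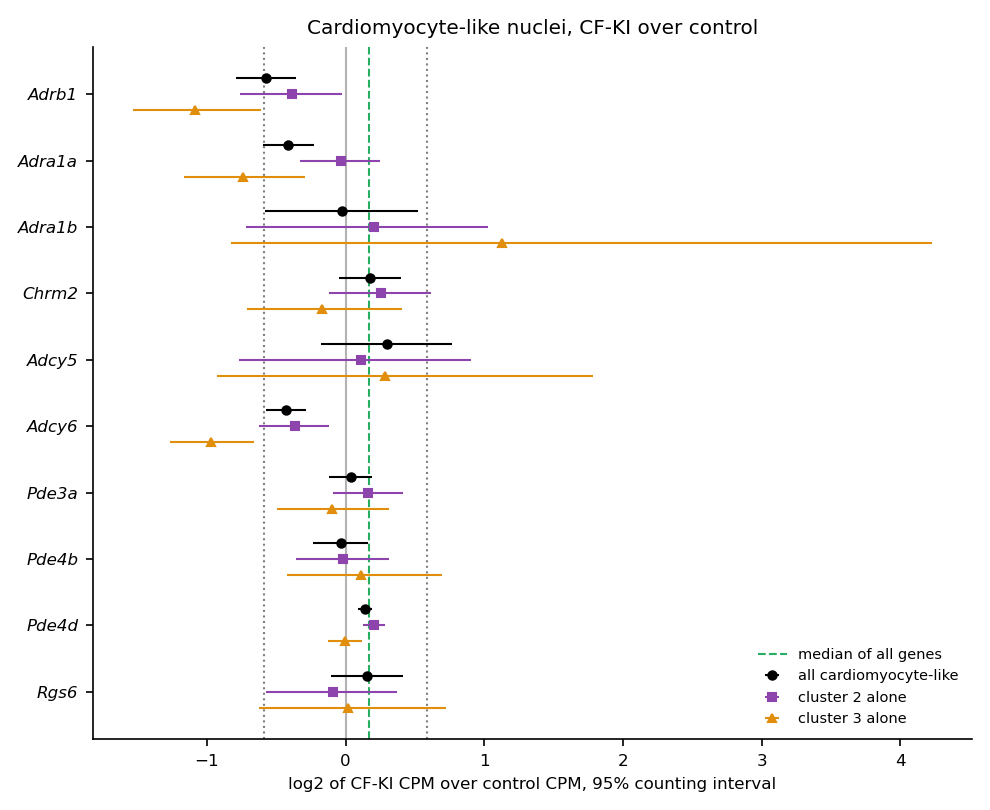
Log2 ratio of CF-KI over control CPM (horizontal axis) for each of the 10 genes in all cardiomyocyte-like nuclei, in cluster 2 alone and in cluster 3 alone, with 95% counting intervals; dotted lines mark 1.5-fold and the dashed line the median of all genes. Adrb1 and Adcy6 lie below 0 in all 3, at -0.58 and -0.43 over the class.

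Because the libraries filled the clusters so unevenly, the ratios were also taken within each cluster, an alternative chosen after the data were seen. In cluster 3, Adrb1 had 59.0 CPM in CF-KI, against 125.0 CPM for the control, a log2 ratio of -1.08 (-1.54 to -0.61). Adcy6 had 141.4 and 277.0 CPM there, a ratio of -0.97 (-1.27 to -0.66), and Adra1a 79.2 and 132.4 CPM, a ratio of -0.74 (-1.17 to -0.29). Cluster 2 showed smaller differences, with -0.39 (-0.77 to -0.03) for Adrb1, -0.37 (-0.62 to -0.12) for Adcy6 and -0.04 (-0.33 to 0.25) for Adra1a. Adrb1 and Adcy6 were thus lower in CF-KI within either cluster, and Adra1a beyond counting error in cluster 3 alone.

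Median mitochondrial shares of cardiomyocyte-like nuclei were 3.70% in CF-KI and 0.362% in the control, so nuclei were also compared within bands of this share, again chosen after the data were seen. Among nuclei with over 1 to 5% mitochondrial UMIs (1584 CF-KI and 343 control), Adrb1 was at 61.0 and 101.2 CPM and Adcy6 at 139.4 and 274.7 CPM, log2 ratios of -0.73 (-1.15 to -0.29) and -0.98 (-1.24 to -0.71). Adra1a was at 85.7 and 109.2 CPM in this band, a ratio of -0.35 that counting error allowed to reach 0.06. Nuclei with at most 1% were scarce in CF-KI, 106 against 1823, and there Adrb1 had 53.3 CPM in CF-KI, against 88.8 CPM for the control, a ratio of -0.74 whose interval of -1.59 to 0.00 reached 0. In those nuclei Adra1a was nearly equal, at 113.8 and 116.5 CPM. Over 5% mitochondrial UMIs the control kept only 48 nuclei, and Adrb1 had 63.0 CPM in CF-KI, against 130.6 CPM for the control, a ratio of -1.05 (-1.87 to -0.14). Chrm2 had no steady direction, with log2 ratios of 0.12, -0.59 and 0.91 from the lowest band to the highest.

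**Figure D2:**
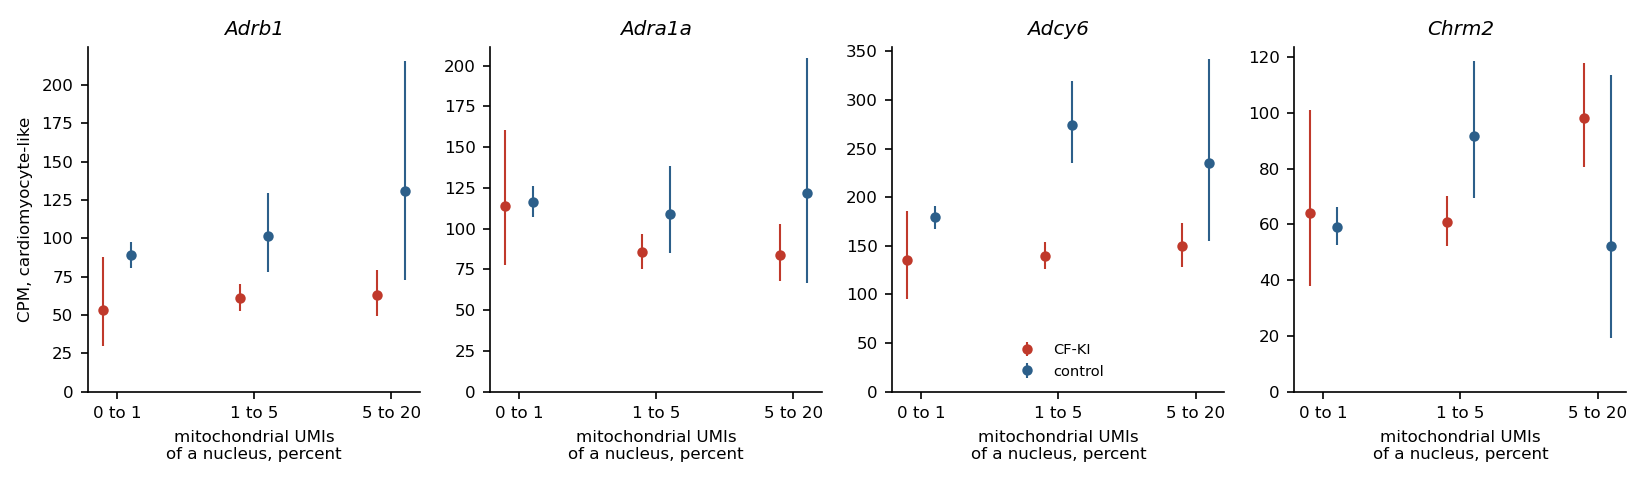
CPM (vertical axis, from 0) of Adrb1, Adra1a, Adcy6 and Chrm2 in cardiomyocyte-like nuclei by band of mitochondrial share (horizontal axis, percent of UMIs), with 95% counting intervals. Adrb1 and Adcy6 have a lower CF-KI point in all 3 bands, and Adra1a points are close in the lowest band, at 113.8 and 116.5 CPM.

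Depth bears on shares of nuclei, since control cardiomyocyte-like nuclei had a median of 2285.5 UMIs and CF-KI ones 1654. Adrb1 had a UMI in 9.74% of CF-KI and 19.5% of control nuclei, and in 2.88% (2.26 to 3.61) and 3.88% (3.12 to 4.78) after each nucleus was thinned to 500 UMIs. After thinning, Adcy6 was found in 6.35% (5.43 to 7.38) and 9.89% (8.68 to 11.2), and Pde4d in 50.6% and 47.7%. As a background, thinned fibroblast-like nuclei had an Adrb1 UMI in 0.275% of CF-KI and 0.114% of control nuclei, also at 500 UMIs each. Before thinning, these shares were 0.515% and 0.485%, at median depths of 914 and 1020 UMIs.

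Across classes, only part of the set was highest in cardiomyocyte-like nuclei. Pde4d was, in both libraries, at its highest there: control fibroblast-like nuclei had 2.95% of the cardiomyocyte-like level, endothelial-like 3.69% and endocardial-like 5.52%. For comparison, 10 cardiomyocyte markers outside the pathway lists had a median of 10.6% of their cardiomyocyte-like level in control fibroblast-like nuclei and 29.3% in CF-KI ones. Markers varied from 2.79% for Ctnna3 to 103.6% for Myl2 in the control, so no single value gives the amount of cardiomyocyte RNA in a class. Adra1a was also low in control fibroblast-like nuclei, at 7.10 CPM or 6.13% of the cardiomyocyte-like level, and Adrb1 at 4.65 CPM or 5.11%. Each of these 3 genes was under the marker median there.

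**Figure D3:**
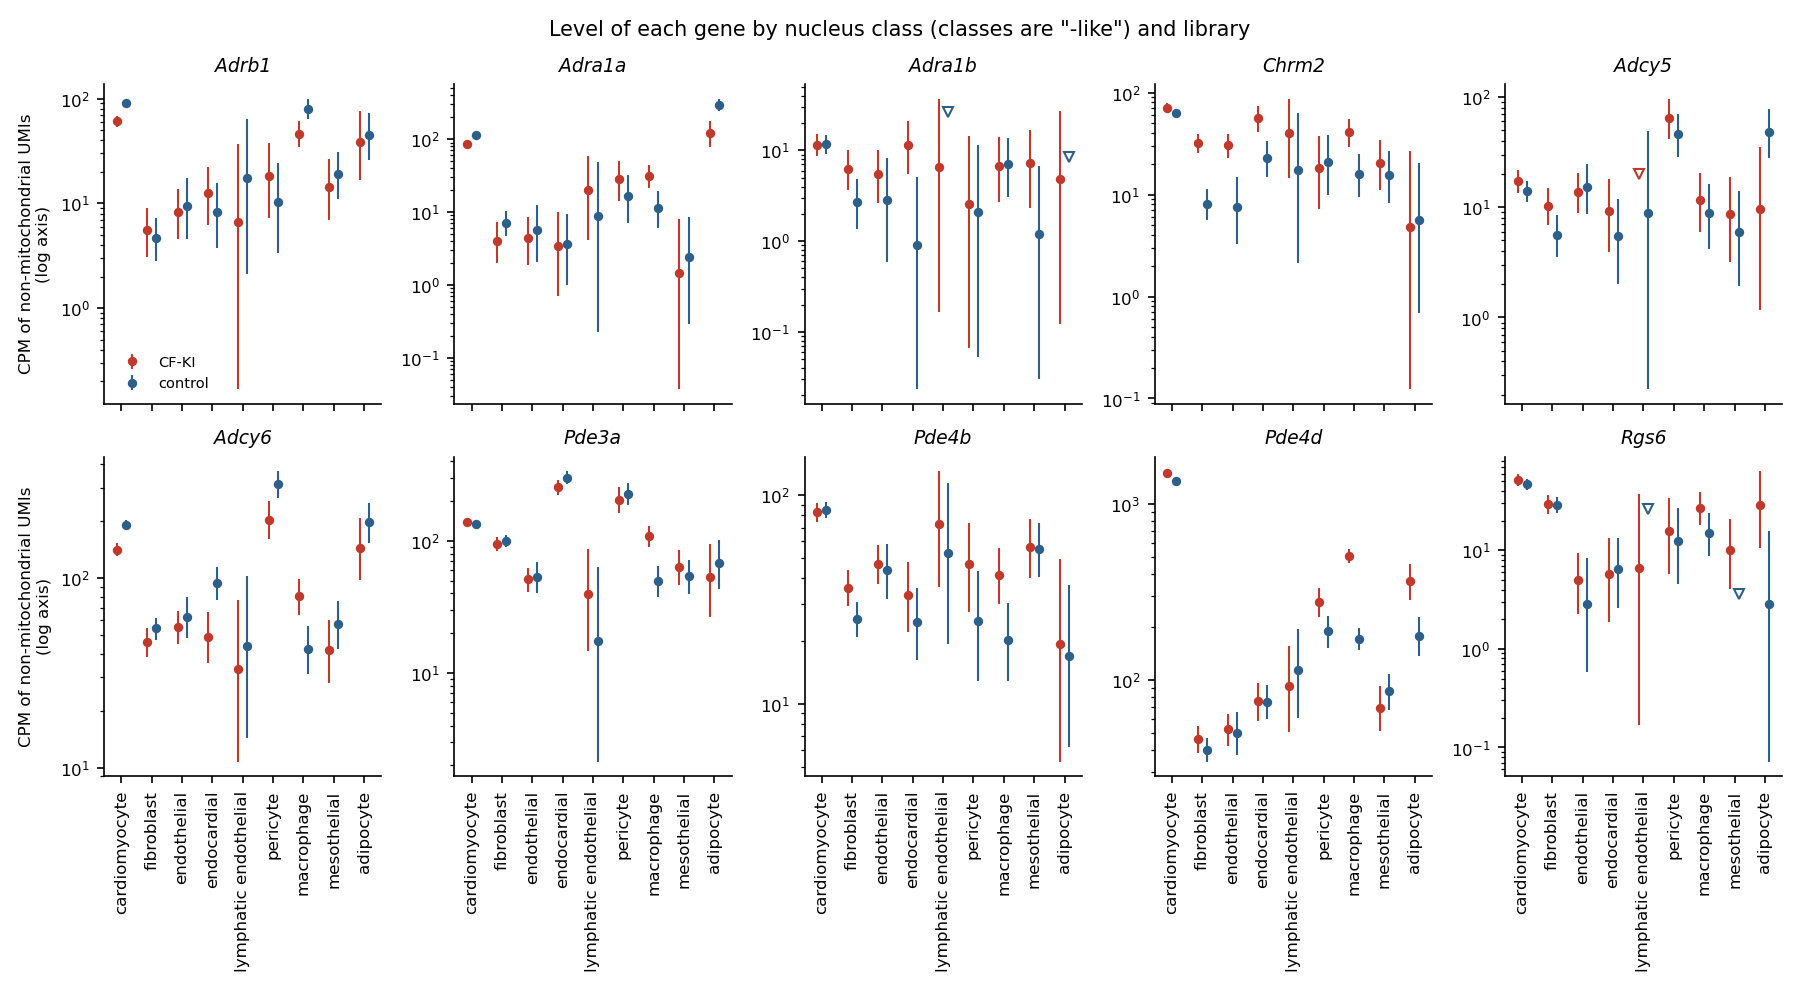
CPM of each gene (vertical axis, log scale) in 9 nucleus classes (horizontal axis) of the CF-KI and control libraries, with exact Poisson 95% intervals; open triangles give the level of 3 UMIs where none was found. Pde4d is highest in cardiomyocyte-like nuclei, Pde3a in endocardial-like and Adcy6 in pericyte-like ones.

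Other members were as high or higher elsewhere. Adra1a was highest in adipocyte-like nuclei, at 294.1 CPM (240.3 to 356.3) in the control and 121.0 CPM in CF-KI, which is 254% (204 to 313) and 139% (88.9 to 208) of the cardiomyocyte-like level. That class had 173 control and 108 CF-KI nuclei, and Adra1a was lower in CF-KI there by a log2 ratio of -1.28 (-1.97 to -0.64). Beside this, summed adipocyte markers were at 4437 CPM in the control and 3282 CPM in CF-KI, cardiomyocyte markers at 3976 and 12030.0 CPM, and erythroid markers at 370.4 and 16590.0 CPM. Their part in the difference was not tested.

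Pde3a was highest in endocardial-like nuclei, the inner lining of the heart, at 301.9 CPM in the control and 253.8 CPM in CF-KI. This was 224% (196 to 255) and 183% (156 to 214) of the cardiomyocyte-like level of the same library. Pericyte-like nuclei, whose leading genes include the smooth muscle genes Myh11 and Tagln, came next with 226.4 and 204.5 CPM, and fibroblast-like nuclei had 99.9 and 94.6 CPM. Endothelial-like nuclei had only 53.1 and 51.2 CPM, and their intervals did not overlap those of the endocardial class in either library.

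Both cyclases were higher in pericyte-like than in cardiomyocyte-like nuclei. Adcy6 stood at 313.6 CPM in control and 204.5 CPM in CF-KI pericyte-like nuclei, 164% (138 to 195) and 144% (113 to 183) of the cardiomyocyte-like level. Adcy5 was at 45.7 and 64.7 CPM, or 326% (194 to 529) and 377% (230 to 599). Adipocyte-like nuclei of the control had a similar level of Adcy5, 48.1 CPM on 17 UMIs, and those of CF-KI 9.68 CPM on 2 UMIs.

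Among classes with at least 20 of its UMIs over both libraries, Rgs6 came next in fibroblast-like nuclei, at 28.9 CPM in the control and 29.4 CPM in CF-KI, 62.1% (49.6 to 77.4) and 56.9% (43.5 to 73.7) of the cardiomyocyte-like level. These values were above the marker medians of 10.6% and 29.3%, but macrophage-like nuclei of CF-KI were close behind at 27.1 CPM. Control endothelial-like nuclei had 2.84 CPM on 3 UMIs, and no UMI was found in 644 control mesothelial-like nuclei, where 3 UMIs would be 3.60 CPM. Pde4b was spread more evenly, from 17.0 CPM in adipocyte-like to 84.9 CPM in cardiomyocyte-like nuclei of the control, with 55.2 CPM in mesothelial-like and 43.6 CPM in endothelial-like ones.

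Adrb1 was also high in adipocyte-like and macrophage-like nuclei. Adipocyte-like nuclei had 49.7% (28.2 to 81.5) of the cardiomyocyte-like level in the control, on 16 UMIs. In CF-KI they had 63.4% (27.1 to 127), on 8 UMIs. Control macrophage-like nuclei held 80.0 CPM (64.4 to 98.2), which is 87.9% (69.5 to 110) of the cardiomyocyte-like level, while Adra1a reached 9.86% (5.22 to 17.0) and the cardiomyocyte marker median 18.9%. CF-KI macrophage-like nuclei had 46.5 CPM (34.3 to 61.6), a log2 ratio of -0.78 (-1.32 to -0.26) against the control. Summed macrophage markers were also lower in CF-KI, at 2838 CPM against 7688 CPM, and their part in the Adrb1 ratio was not tested. The ratio stayed negative in all 11 alternatives, between -1.10 and -0.28.

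**Figure D4:**
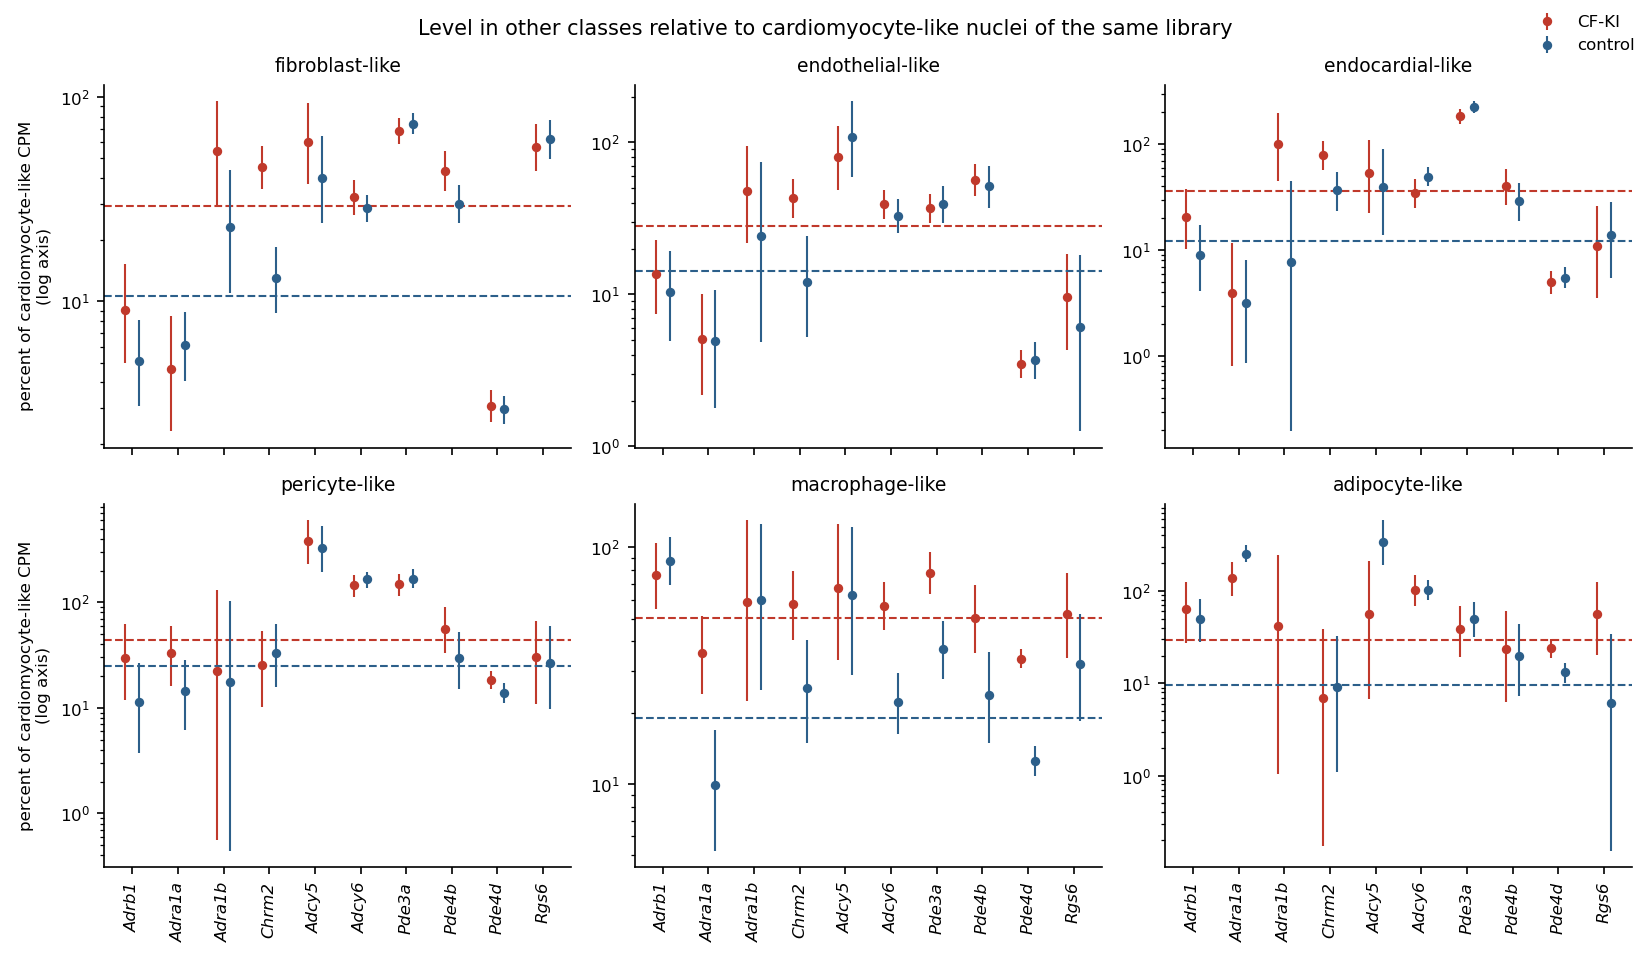
CPM in 6 other classes as a percent of the cardiomyocyte-like CPM of the same library (vertical axis, log scale) for each gene, with 95% counting intervals; dashed lines give the median of 10 cardiomyocyte markers in that class and library, and a gene with no UMI in a class has no point. Adrb1 in control macrophage-like nuclei lies at 87.9%, above the marker line at 18.9%.

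Between the libraries, the member with the largest ratio in fibroblast-like, endothelial-like and endocardial-like nuclei, among those with at least 20 UMIs, was Chrm2. In fibroblast-like nuclei, the class in which Cre is driven, Chrm2 was at 32.0 CPM (25.7 to 39.5) in 2913 CF-KI nuclei and 8.08 CPM (5.56 to 11.3) in 3508 control nuclei, a log2 ratio of 1.99 (1.39 to 2.61). The intervals did not overlap. Adra1b and Adcy5 were also higher in CF-KI, at 6.26 against 2.69 CPM (log2 ratio 1.22, 0.04 to 2.46) and 10.3 against 5.63 CPM (0.87, 0.02 to 1.73), both barely beyond counting error. Pde4b was at 36.1 and 25.5 CPM (0.50, 0.09 to 0.91), and Rgs6, Pde3a and Pde4d differed by less than counting error. Altogether 3 of 10 members were 1.5-fold higher in CF-KI fibroblast-like nuclei, against 12.5% of 12464 genes, and 1 (Adra1a, at 4.05 and 7.10 CPM, -1.96 to 0.23) was 1.5-fold lower, against 10.4%. The member median was 0.22 and that of all genes -0.01.

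Marker sums of fibroblast-like nuclei also differed between the libraries. Summed cardiomyocyte markers were at 17467 CPM in CF-KI fibroblast-like nuclei and 5347 CPM in control ones, with none of the 12 at 0, and summed fibroblast markers at 25471 and 43645 CPM. Chrm2 was at 12.9% (8.77 to 18.5) of the cardiomyocyte-like level in control fibroblast-like nuclei and 45.4% (35.4 to 57.8) in CF-KI, beside marker medians of 10.6% and 29.3%. Pde4d was at 2.95% (2.51 to 3.45) in the control and 3.07% (2.55 to 3.66) in CF-KI. The part of cardiomyocyte RNA in the ratios of the members was not tested. In a further step an estimate of free RNA was subtracted, 46.4% of UMIs in CF-KI and 22.9% in control fibroblast-like nuclei. The sum over all barcodes of the library stood in for the free RNA, and cardiomyocyte markers set its share. That sum holds the nuclei themselves, so the step also takes away RNA of the class, here and in the other classes. The Adcy5 ratio turned to -0.16. The Chrm2 ratio gave no value, as the counts left allowed only a bound. Whether the Chrm2 difference grew or shrank therefore cannot be read from this step. With a mitochondrial limit of 5%, nuclei were clustered and named anew, and 85 CF-KI nuclei were named fibroblast-like. Pde4d was at 604.7 CPM in these, against 46.0 CPM in the main class. The main class had only 56 CF-KI nuclei with over 1 to 5% mitochondrial UMIs, with Pde4d at 82.2 CPM on 5 UMIs. The 85 nuclei are therefore not a part of the main class. They held 2 Chrm2 UMIs, and the Chrm2 ratio was 0.13. Over the other 9 ways of processing that gave a value it lay between 1.70 and 1.9995.

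Chrm2 also stood higher in CF-KI in 3 more classes. Endothelial-like nuclei had 30.3 CPM against 7.58 CPM (log2 ratio 1.997, 0.92 to 3.28), endocardial-like 56.0 against 22.9 CPM (1.29, 0.57 to 2.05) and macrophage-like 40.7 against 15.8 CPM (1.36, 0.53 to 2.25). Summed cardiomyocyte markers were higher in CF-KI in these classes too, at 15890.0 against 8377 CPM in endothelial-like and 21754 against 7096 CPM in endocardial-like nuclei. The median marker was at 27.9% against 14.2% and at 36.5% against 12.3% of its cardiomyocyte-like level. Free RNA of these classes was estimated from cardiomyocyte markers. After it was subtracted, the Chrm2 ratio was 1.66 in endocardial-like and 1.82 in macrophage-like nuclei, and endothelial-like nuclei gave no value. The part of cardiomyocyte RNA in the Chrm2 ratios was not tested. Mesothelial-like nuclei did not differ beyond counting error, at 20.2 and 15.6 CPM, nor did pericyte-like, at 18.1 and 20.8 CPM. In barcodes with over 20% mitochondrial UMIs, which were left out of the classes, Chrm2 was at 75.2 CPM in 4212 CF-KI and 57.9 CPM in 520 control barcodes. Kept barcodes as a whole had 45.7 and 31.5 CPM. Adcy5 was likewise higher in the barcodes left out, at 35.0 and 26.5 CPM against 15.03 and 11.9 CPM, while Adra1a was at 9.53 and 11.6 CPM against 38.2 and 54.8 CPM and Pde4d at 104.8 and 218.4 CPM against 620.5 and 573.3 CPM.

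In endothelial-like nuclei 7 members had at least 20 UMIs, of which Chrm2 alone was 1.5-fold higher in CF-KI (9.66% of all genes) and none 1.5-fold lower (13.4% of all genes). Among 6 such members in endocardial-like nuclei, Chrm2 and Adrb1 were 1.5-fold higher (15.5% of all genes), the latter on 11 and 9 UMIs with an interval from -0.80 to 2.06. Adcy6 was 1.5-fold lower there (12.9% of all genes), at 49.2 CPM in CF-KI, against 94.2 CPM for the control, a log2 ratio of -0.94 (-1.49 to -0.41). Pericyte-like nuclei had 5 such members, with Pde4b 1.5-fold higher (25.5% of all genes) on 18 and 12 UMIs, and Adcy6 1.5-fold lower (14.4% of all genes), at a log2 ratio of -0.62 (-1.03 to -0.22). Adcy6 was thus lower in CF-KI beyond counting error in cardiomyocyte-like, endocardial-like and pericyte-like nuclei, but the ratio was 0.04 in endocardial-like nuclei at the 5% mitochondrial limit and 0.01 in pericyte-like ones after free RNA was subtracted.

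Macrophage-like nuclei had the most members past 1.5-fold of the 6 classes with such counts: of 9 members with at least 20 UMIs, 7 were 1.5-fold higher in CF-KI, against 17.2% of all genes, and only Adrb1 was 1.5-fold lower, against 18.2%. Their median log2 ratio was 1.04, beside -0.02 for all genes. Pde4d was at 507.2 CPM (464.7 to 552.5) in CF-KI, against 170.5 CPM for the control, a log2 ratio of 1.57 (1.33 to 1.82), and Pde3a at 108.4 and 50.1 CPM, a ratio of 1.11 (0.64 to 1.60). Adcy6 (80.3 and 42.2 CPM) and Adra1a (31.0 and 11.4 CPM) went the same way. Summed macrophage markers, however, were at 2838 CPM in CF-KI, against 7688 CPM for the control, and summed cardiomyocyte markers at 20166 and 9052 CPM. The median cardiomyocyte marker was at 50.3% of the cardiomyocyte-like level in CF-KI macrophage-like nuclei, where Pde4d was at 33.8% and Adcy6 at 56.7%, and at 18.9% in the control, where these genes were at 12.5% and 22.1%. After free RNA was subtracted, the ratio was 4.18 for Pde3a, 2.02 for Rgs6, 1.82 for Chrm2 and -0.28 for Adrb1. Pde3a and Rgs6 had few control UMIs left, and Pde4d, Adcy6 and Adra1a gave no value. The part of these marker differences in the ratios of the members was not tested.

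Atrial cardiomyocyte-like nuclei formed a cluster of their own when no mitochondrial limit was set, 59 in CF-KI and 112 in the control. Chrm2 was at 225.5 CPM (161.8 to 305.9) in the control and 205.4 CPM (112.3 to 344.7) in CF-KI, compared with 60.5 and 81.8 CPM in the remaining cardiomyocyte-like nuclei of that clustering. Rgs6, its partner in ending vagal signals, was likewise higher in the atrial class, at 148.5 CPM (97.8 to 216) against 42.7 CPM in the control and 117.4 CPM (50.7 to 231) against 42.1 CPM in CF-KI. Pde4d was lower, at 505.9 CPM against 1324.1 CPM in the control and 366.8 CPM against 1257.5 CPM in CF-KI. Adra1a had 2 UMIs in the control atrial class and none in CF-KI, where 3 UMIs would be 44.0 CPM. No member with a ratio in this class differed between the libraries beyond counting error. When each library was clustered on its own, 189 CF-KI and 162 control nuclei were named atrial cardiomyocyte-like, and the values moved: Chrm2 was at 126.6 and 116.2 CPM, and Rgs6 at 21.1 CPM in CF-KI on 3 UMIs and 91.7 CPM in the control.

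Pathway genes around the 10 members were read from 9 lists of 112 genes, 111 of them in the files and 80 with at least 20 UMIs in cardiomyocyte-like nuclei. Of these 80, 18 were 1.5-fold higher in CF-KI and 3 were 1.5-fold lower, beside 24.1% and 7.38% of all genes, and their median was 0.20. None of the 10 other adrenergic and muscarinic receptors reached 20 UMIs. G protein subunits and GIRK channels had 5 of 14 higher, led by Gng5 at 92.5 and 32.5 CPM (log2 ratio 1.51, 1.25 to 1.76) and with Gnas, the stimulatory alpha subunit, at 171.8 and 85.0 CPM (1.01, 0.85 to 1.18). The lowest was Kcnj3, a subunit of the muscarinic potassium channel, at 39.1 and 43.6 CPM (-0.16, -0.44 to 0.13).

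Other adenylyl cyclases had 4 of 5 higher (24.1% of all genes) and 1 lower (7.38% of all genes). Adcy7 was the highest at 6.104 and 2.97 CPM (1.04, 0.11 to 2.004) and Adcy9 the lowest at 12.7 and 22.2 CPM (-0.81, -1.29 to -0.35). Among other phosphodiesterases 3 of 12 were higher, near the 24.1% of all genes, with Pde10a highest at 7.91 and 2.45 CPM (1.69, 0.76 to 2.70). Pde7a, the lowest, was abundant at 406.1 and 556.1 CPM (-0.45, -0.54 to -0.37). Other RGS proteins had 3 of 8 higher (24.1% of all genes), led by Rgs5, a gene of pericytes, at 39.6 and 11.03 CPM (1.84, 1.42 to 2.28). Rgs2 was the lowest at -0.13 (-0.43 to 0.18).

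Receptor kinases and arrestins, which switch off occupied receptors, had 2 of 7 lower (7.38% of all genes) and none higher (24.1% of all genes). Their median was -0.40, beside 0.17 for all genes. Grk3 was at 16.7 CPM in CF-KI, against 33.6 CPM for the control, a log2 ratio of -1.01 (-1.41 to -0.61), Grk4 passed 1.5-fold on 17 and 34 UMIs with an interval from -1.56 to 0.25, and Grk5, the highest, was at 15.1 and 11.9 CPM (0.35, -0.16 to 0.86). Of 15 cyclic AMP effectors only Popdc2, a cyclic AMP binding membrane protein of muscle, was higher, at 303.6 and 141.4 CPM (1.10, 0.98 to 1.23), and the lowest, Hcn2, rested on 10 and 18 UMIs. A kinase anchoring proteins had a median of -0.24, with none of 10 lower by 1.5-fold (7.38% of all genes) and 1 higher (24.1% of all genes). The higher gene was Akap12, at 22.8 and 5.77 CPM (1.98, 1.40 to 2.597), and Akap1, the lowest, was at 54.3 and 74.9 CPM (-0.47, -0.70 to -0.23). Kinase A substrates ranged from Rrad at 64.2 and 95.2 CPM (-0.57, -0.78 to -0.36) to Tnni3, troponin I, at 2210.0 and 1006.2 CPM (1.14, 1.09 to 1.18). Beside these ratios, summed fibroblast markers in cardiomyocyte-like nuclei were at 1849 CPM in CF-KI, against 920.7 CPM for the control, and pericyte markers at 268.6 and 183.0 CPM. Whether RNA of other cells takes part in the ratios of Rgs5, Akap12 or Gng5 was not tested.

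**Figure D5:**
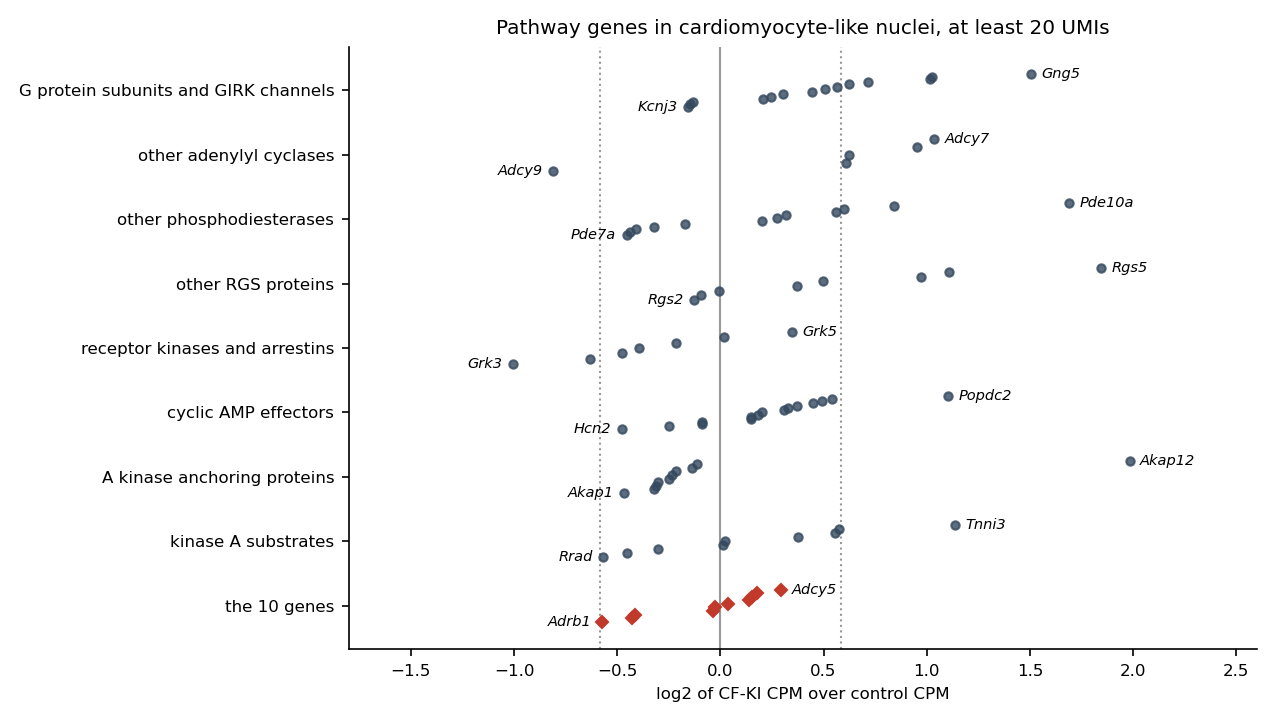
Log2 ratio of CF-KI over control CPM in cardiomyocyte-like nuclei (horizontal axis) for each pathway gene with at least 20 UMIs, by list, and for the 10 genes (diamonds); the highest and lowest of each list are named and dotted lines mark 1.5-fold. The 10 genes lie between -0.58 for Adrb1 and 0.30 for Adcy5, inside the dotted lines.

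Each member was also set beside the genes whose pattern over classes was most like its own, by Pearson's r of log2(CPM + 1) over 18 points, the 9 classes in each library. These points share their library, its depth and its free RNA, so r is a description. Adra1a was most like Plin4, a lipid droplet protein (r = 0.964), and Vegfa (0.936), and Pde4d most like D830024N08Rik (0.958) and Ppargc1a (0.955), a coactivator of mitochondrial genes. Adrb1 was most like Esrra (0.879), an orphan nuclear receptor, and Pnpla7 (0.867). The nearest to Chrm2 were Smyd1 (0.883), a muscle methyltransferase, and Clip4 (0.868), to Adra1b Hjv (0.921) and Mlf1 (0.884), and to Rgs6 Hectd2os (0.875) and Pecr (0.831). Pde3a was nearest to Hey2 (0.829), a transcription factor, and Art4 (0.786), Pde4b to Pkia (0.854), an inhibitor of protein kinase A, and Ccng1 (0.810). Adcy5 was nearest to Inpp5b (0.854) and Ptcd2 (0.827), and Adcy6 to Ybx2 (0.828) and Art3 (0.825). Among the members themselves the closest pairs were Adrb1 with Pde4d (0.831), Adra1a with Pde4d (0.771) and Adcy5 with Adcy6 (0.739).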

How the data were processed

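Nuclei of cardiac tissue were profiled by 10x single-nucleus RNA sequencing, with 1 CF-KI and 1 control library. The authors deposited UMI counts per gene and barcode, made with Cell Ranger 6.1.1 per the file headers and on mm10 per the submitters' processing notes; intron use and cell calling settings are not given in the sources used here. Library totals were 21603653 and 18040776 counts. Barcodes under 200 genes or over 20% mitochondrial UMIs were left out, and Scrublet doublets (650 and 299, or 4.34% and 2.67%) were removed. Libraries were clustered together with scanpy 1.11.5 and leidenalg 0.10.2 (2000 variable genes, 30 components, 15 neighbours, resolution 0.8), without the members, pathway genes, mitochondrial and ribosomal protein genes. A cluster was named from 20 marker lists when at least 3 markers were raised; the rule that an erythroid name needs Alas2 was set after clusters were seen.

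UMIs were summed per class and library and scaled to CPM by the non-mitochondrial total. Intervals are 95%: exact Poisson for levels, Clopper-Pearson for shares, and conditional exact binomial for log2 ratios. Where no UMI was found, the floor was 3 UMIs. Scripts were tested on simulated data. Members with at least 20 UMIs over both libraries entered counts, and a fold of 1.5 was the limit used. Named genes were all members, the highest and lowest gene of each pathway list and the 2 genes most like each member. Positions came from GENCODE vM21, whose 10 identifiers matched the files. Alternatives were the mitochondrial limit, doublets, minimum genes, resolution and separate clustering, each with nuclei clustered and named anew. Others were edgeR 4.0.16 TMM and DESeq2 1.42.0 median-of-ratios factors, free RNA subtraction, thinning and the minimum of UMIs. The free RNA profile was the sum over all barcodes of a library, nuclei included. Clusters and mitochondrial bands were added after seeing the data. The members and lists were chosen with earlier results of these data known.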

Additional observations from a re-analysis of the deposited data

Results flagged for a closer look

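Adcy6 differed in direction between classes: the log2 ratio of CF-KI over control was 0.93 in macrophage-like nuclei, -0.94 in endocardial-like nuclei and -0.62 in pericyte-like nuclei, each beyond counting error. The difference between the classes was not tested, since there was 1 library per group. Summed cardiomyocyte markers were higher in CF-KI in all 3 classes, at 20166 against 9052 CPM, 21754 against 7096 CPM and 21086 against 10614 CPM, and their part in the Adcy6 ratios was not tested.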

How the results depend on the processing

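No paired analysis was possible because each group had 1 library. Over 152 results and 1449 combinations with an alternative, 1236 stayed within the interval, 198 moved beyond it and 15 reversed; the cause was not tested. With the bands and clusters added after seeing the data included, the number of members 1.5-fold lower in cardiomyocyte-like nuclei, 0 in the report, was 2 with no mitochondrial limit, 1 at resolution 0.4, 2 with TMM and 2 with median-of-ratios scaling, 1 after thinning, 3 in cluster 3, and 2, 4 and 2 in the bands of 0 to 1, 1 to 5 and 5 to 20% mitochondrial UMIs. The number 1.5-fold higher was 1 with no limit, 1 in cluster 3, 1 in the lowest band and 2 in the highest. The share of all genes past 1.5-fold was not taken under these alternatives, so these counts have no background beside them. The median of members in fibroblast-like nuclei was 1.18 at the 5% limit, over 7 members. Nuclei were clustered and named anew at that limit, so its fibroblast-like class is not a part of the main one. The Pde4d ratio in cardiomyocyte-like nuclei turned to -0.074 with no limit, -0.018 with TMM, -0.027 with median-of-ratios scaling, -0.0050 in cluster 3, and -0.0021 and -0.027 in the bands of 0 to 1 and 1 to 5%. After free RNA subtraction the ratio was -0.16 for Adcy5 in fibroblast-like, 0.22 for Pde3a in endocardial-like and 0.0079 for Adcy6 in pericyte-like nuclei. At the 5% limit it was 0.035 for Adcy6 in endocardial-like nuclei. The Pde4d ratio at that limit was 2.92 in fibroblast-like, 2.93 in endocardial-like and 2.06 in pericyte-like nuclei, against 0.20, 0.01 and 0.55 in the report. At that limit in CF-KI, the log2 ratio of cardiomyocyte-like over another class was -0.55 for Rgs6 over fibroblast-like, -0.24 for Adrb1 and 0.24 for Adcy5 over pericyte-like, and -0.77 for Pde3a and -0.29 for Pde4b over macrophage-like nuclei. Ratios that were bounds only, 79 in all and 68 of them after free RNA subtraction, gave no value, and the scalings were not run for ratios between classes. Few UMIs limit Adra1b, Adcy5 and Rgs6 outside cardiomyocyte-like and fibroblast-like nuclei.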
